A study of Mus musculus with 51 samples.

Results

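The 10 genes described here form the core of the circadian clock and its first output step: Arntl, Clock, Npas2, Per1, Per2, Per3, Cry1, Cry2, Dbp and Tef. They were chosen by name, as known clock genes, from the 33773 gene symbols of the expression matrix, and all 10 are listed there. Earlier results of these data were known at that point, so counts of members are not independent support. In each cell, ARNTL (also called BMAL1) pairs with CLOCK or with its relative NPAS2 and switches on genes that carry E-box sequences, among them the period and cryptochrome genes. The PER and CRY proteins then build up and repress ARNTL and CLOCK, so that the activators and their targets peak at opposite times of day. DBP and TEF are transcription factors of the PAR bZip family that act at D-box sequences, and Dbp is a direct target of ARNTL and CLOCK whose mRNA swings with a large amplitude in liver. The REV-ERB proteins (genes Nr1d1 and Nr1d2) repress Arntl, Npas2 and Cry1, and the ROR proteins activate them.

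RNA was sequenced from mouse hepatocytes in 4 groups and from mouse liver in 2 groups, 21 libraries in all. The FoxA triple null group (4 libraries) came from mice with FoxA1L/L/FoxA2 L/L/FoxA3-/- alleles injected at 8 weeks of age with adeno-associated virus AAV8 that carries Cre under the hepatocyte-specific Tbg promoter. The FoxA3 null group (4 libraries) has the same alleles and, per the design text, received virus with GFP, so every animal of both groups lacks FoxA3. The FoxA1/A2 lox group (3 libraries) has floxed FoxA1 and FoxA2 with no deletion, and the FoxA1/A2 Cre alfp group (4 libraries) has FoxA1 and FoxA2 deleted with FoxA3 intact; the labels do not spell out alfp. The liver groups are HNF4a control (2 libraries) and HNF4a null (4 libraries), depleted in adult livers per the design text. The ages of the other groups, and the hour of collection, lighting and feeding of all groups, are not given in the sources used here. Nothing in the labels says whether libraries of a group came from separate mice, so p-values measure the spread between these libraries.

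Levels are the authors' RPKM (reads scaled by gene length and sequencing depth). Differences are on the log2(RPKM + 1) scale, which understates the change of low genes, and a gene is called changed at a Benjamini-Hochberg adjusted p under 0.05 in limma over all tested genes. Absolute depth is unknown; relative to the shallowest library, depth ran from 1 to 1.1 in liver and from 2.02 to 4.09 in hepatocytes. Foxa3 was at 0 to 0.0114 RPKM in the FoxA3 null and triple null libraries and at 19 to 34.5 RPKM in lox and Cre alfp. Foxa2 fell from 13.7 ± 4.58 RPKM (SD, n = 4) in FoxA3 null to 0.366 ± 0.103 (n = 4) in the triple null, and from 12.5 ± 6.26 (n = 3) in lox to 1.09 ± 0.127 (n = 4) in Cre alfp. Foxa1 fell from 8.5 ± 1.85 to 3.28 ± 0.283 RPKM and from 6.72 ± 1.81 to 1.24 ± 0.1 RPKM in the same comparisons. Hnf4a mRNA went against its label: it was 126 and 118 RPKM in the control livers against 487 to 545 RPKM in those labelled HNF4a null. RPKM covers the whole gene and does not show whether part of it was deleted, so these libraries are called labelled HNF4a null throughout.

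Sequences upstream of 3 members are shown because these genes carry the clock motifs of the loop just described and because 2 of them, Cry1 and Per3, changed in a comparison below. They are RefSeq promoter windows of build GRCm38.p6, cut to the 250 bases before the annotated start, with motif matches on either strand in capitals. Cry1 lies at chr10:85185055-85185304, minus strand, and its capitals mark, in order, a FoxA core and an E-prime box, both on the opposite strand, and an E-box. Per1 lies at chr11:69098699-69098948, plus strand, with its E-box in capitals, and a second RefSeq window of Per1, not shown, had no motif match. Per3 lies at chr4:151044666-151044915, minus strand, with 2 copies of a D-box in capitals.
Cry1: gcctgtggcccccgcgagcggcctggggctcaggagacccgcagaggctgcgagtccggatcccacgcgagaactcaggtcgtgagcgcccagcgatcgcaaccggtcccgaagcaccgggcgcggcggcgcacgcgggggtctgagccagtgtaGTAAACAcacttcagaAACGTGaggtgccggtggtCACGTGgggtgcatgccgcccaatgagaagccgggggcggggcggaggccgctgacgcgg
Per1: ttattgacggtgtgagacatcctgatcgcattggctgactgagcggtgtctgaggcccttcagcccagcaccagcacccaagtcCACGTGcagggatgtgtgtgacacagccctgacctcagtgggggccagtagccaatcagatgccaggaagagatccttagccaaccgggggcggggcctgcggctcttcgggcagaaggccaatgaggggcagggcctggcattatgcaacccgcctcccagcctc
Per3: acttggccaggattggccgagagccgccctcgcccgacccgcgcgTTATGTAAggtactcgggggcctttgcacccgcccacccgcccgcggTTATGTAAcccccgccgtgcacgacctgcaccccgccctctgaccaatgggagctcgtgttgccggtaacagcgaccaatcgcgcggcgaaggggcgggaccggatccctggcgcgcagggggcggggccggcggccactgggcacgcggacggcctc
RefSeq windows were found for 9 of the 10 members, 14 windows in all, the exception being Per2. Over the 300 bases of each window, from 250 before to 50 after the start and on both strands, the E-box CACGTG was present in 4 of the 14 (Per1, Cry1 and both windows of Tef) and in 7.15% of all 32851 mouse promoter windows. The E-prime box CACGTT was in 2 member windows (Cry1 and Cry2) and in 4.68% of all. The D-box TTATGTAA was in the Per3 window alone among members and in 0.938% of all. Its palindromic form TTACGTAA was in 0 member windows and in 0.119% of all. The ROR and REV-ERB site TAGGTCA, searched likewise, was in 1 Arntl window, 31 bases after its start, and in 2.61% of all windows. The FoxA core TGTTTAC was in the Cry1 window alone among members and in 3.65% of all, and the HNF4 sequence CAAAGTCCA was in 0 member windows and in 0.475% of all. A match of letters is a description and not evidence of binding.

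Several clock transcripts differed widely between libraries of the same group. In lox and in Cre alfp, single libraries stood at opposite ends of the range, with Arntl and Npas2 high where Dbp, Tef and Per3 were low. For Arntl and Dbp the 4 triple null libraries lay closer together than those of the other hepatocyte groups. All 4 had high Dbp and low Arntl, as had FoxA3 null replicates 1, 2 and 4. Cry1 was the 1 member called different between triple null and FoxA3 null, at 3.39-fold lower on the means, where 29.7% of all genes were called. That call was lost in 7 of 8 fits that left out 1 library. Per3 was 3.5-fold higher in the livers labelled HNF4a null than in control liver. Fewer cells of a type and less RNA per cell cannot be told apart in such bulk libraries.

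**Figure D1:**
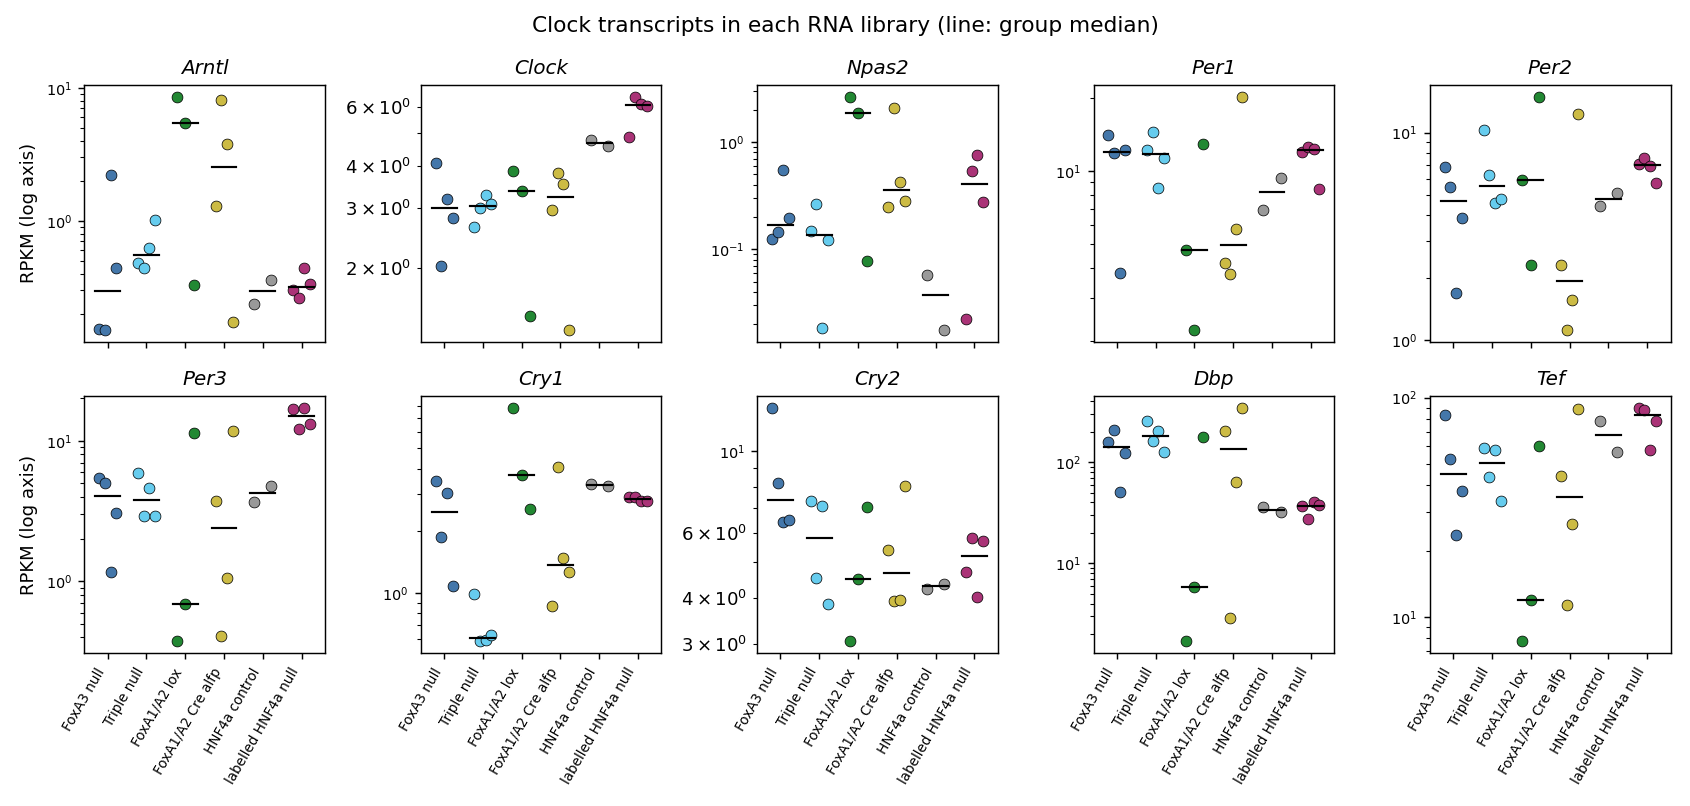
RPKM (log axis) of each of the 10 clock genes in every library, by group; each point is 1 library, in replicate order from left to right, and the line is the group median. In lox and Cre alfp the points of Arntl and Dbp run from 0.175 to 8.59 and from 1.7 to 342 RPKM, while the 4 triple null libraries hold between 0.445 and 1.01 and between 127 and 253 RPKM.

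Arntl encodes the indispensable activator of the loop. It was 0.155, 0.151, 2.22 and 0.443 RPKM in FoxA3 null replicates 1 to 4 and 0.486, 0.445, 0.628 and 1.01 RPKM in the triple null. Lox replicates had 8.59, 5.45 and 0.329 RPKM, and Cre alfp replicates 1.29, 8.14, 3.81 and 0.175 RPKM. Within each of these last 2 groups the highest library thus exceeded the lowest 26.1-fold and 46.5-fold, against 14.7-fold in FoxA3 null and 2.26-fold in the triple null. Liver was uniformly low, at 0.237 and 0.356 RPKM in control. The 4 labelled HNF4a null libraries had 0.303, 0.264, 0.445 and 0.336 RPKM. The order of group medians was lox, Cre alfp, triple null, labelled HNF4a null, FoxA3 null and control. Of these neighbours only triple null and labelled HNF4a null did not overlap.

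Npas2 encodes a relative of CLOCK that can stand in for it. It was 2.65, 1.86 and 0.0782 RPKM in lox and 0.249, 2.07, 0.427 and 0.283 RPKM in Cre alfp. These 3 libraries above 1 RPKM (lox 1 and 2 and Cre alfp 2) are the ones with the highest Arntl, and it is through them that Npas2 passed the minimum for testing. FoxA3 null libraries were at 0.126, 0.146, 0.552 and 0.194 RPKM and triple null libraries at 0.148, 0.263, 0.0186 and 0.123 RPKM, which overlap. Control liver had 0.0572 and 0.0177 RPKM, while labelled HNF4a null livers had 0.0222, 0.533, 0.751 and 0.279 RPKM.

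Clock encodes the usual partner of ARNTL and its means were close in the 4 hepatocyte groups. They were 3.03 ± 0.856 RPKM in FoxA3 null, 3.01 ± 0.266 in the triple null, 2.89 ± 1.29 in lox and 2.9 ± 1.12 in Cre alfp (SD, n = 3 for lox, otherwise n = 4). The lowest hepatocyte libraries were lox replicate 3 at 1.44 RPKM and Cre alfp replicate 4 at 1.31 RPKM, which are also the libraries of their groups with the lowest Arntl. All 6 liver libraries were higher than every hepatocyte library, with 4.78 and 4.58 RPKM in control and 4.88 to 6.42 RPKM in those labelled HNF4a null.

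The period genes encode the proteins that enter the nucleus with CRY to repress ARNTL and CLOCK. Per3 was 5.48, 4.98, 1.17 and 3.09 RPKM in FoxA3 null, 5.86, 2.93, 4.6 and 2.9 RPKM in the triple null, 0.375, 0.691 and 11.4 RPKM in lox and 3.76, 0.411, 1.05 and 11.8 RPKM in Cre alfp. The single high library of lox (replicate 3) and of Cre alfp (replicate 4) stood above every FoxA3 null and triple null library, and the lowest of each group stood below them all. Control liver had 3.7 and 4.76 RPKM, and the libraries labelled HNF4a null had 16.7, 12.2, 17.1 and 13.2 RPKM, higher than all other libraries of the set.

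Per1 ran from 8.49 to 14.5 RPKM in the triple null and was 14.1, 11.8, 3.79 and 12.2 RPKM in FoxA3 null. It was 4.74, 2.22 and 12.9 RPKM in lox and 4.19, 3.77, 5.78 and 20.2 RPKM in Cre alfp, so again 1 library of each group was high. Per2 gave the same high libraries, with 5.91, 2.3 and 14.9 RPKM in lox and 2.31, 1.12, 1.56 and 12.3 RPKM in Cre alfp. It was 6.82, 5.46, 1.68 and 3.9 RPKM in FoxA3 null and 10.3, 6.28, 4.6 and 4.79 RPKM in the triple null. FoxA3 null replicate 3 was thus the lowest of its group for Per1, Per2 and Per3, and it was the highest for Arntl and Npas2. In liver, Per1 was 6.94 and 9.39 RPKM in control and 8.43 to 12.5 RPKM in the labelled HNF4a null libraries, and Per2 was 4.45 and 5.09 against 5.72 to 7.55 RPKM.

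The cryptochromes are the main repressors of ARNTL and CLOCK, and Cry1 peaks later in the cycle than the period genes. Cry1 was 3.5, 1.87, 3.04 and 1.09 RPKM in FoxA3 null and 0.988, 0.586, 0.595 and 0.627 RPKM in the triple null. All 4 triple null libraries were thus below all 4 FoxA3 null libraries, by a margin of 0.988 against 1.09 RPKM at the closest pair. It was 7.84, 3.71 and 2.56 RPKM in lox and 0.868, 4.07, 1.48 and 1.27 RPKM in Cre alfp, which overlap. Control liver had 3.38 and 3.29 RPKM, and the libraries labelled HNF4a null had 2.91, 2.9, 2.79 and 2.79 RPKM. Cry2 varied less, from 3.04 RPKM in lox replicate 1 to 13.1 RPKM in FoxA3 null replicate 1. The libraries of all neighbouring groups in its order of medians overlapped.

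Dbp and Tef carry the clock's rhythm to genes of metabolism and detoxification. Dbp was 157, 206, 50.6 and 122 RPKM in FoxA3 null and 253, 160, 202 and 127 RPKM in the triple null. It was 1.7, 5.91 and 175 RPKM in lox and 203, 2.88, 63.7 and 342 RPKM in Cre alfp, a 103-fold and a 119-fold range. Liver lay between, at 35.8 and 32.3 RPKM in control and at 36.7, 27.6, 40.2 and 37.6 RPKM under the HNF4a null label. Tef showed the same libraries low and high over a smaller range, with 7.73, 12 and 59.9 RPKM in lox and 43.9, 11.3, 26.4 and 88.4 RPKM in Cre alfp. It was 83.2, 52.5, 23.7 and 37.5 RPKM in FoxA3 null, 33.7 to 58.7 RPKM in the triple null, 78.1 and 56.4 RPKM in control liver and 57.6 to 89.6 RPKM in the labelled HNF4a null libraries. For both genes every pair of neighbouring groups in the order of medians overlapped.

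Set against each other, Arntl and Dbp place each library on 1 scale. Dbp over Arntl was 0.197, 1.08 and 534 in lox and 157, 0.353, 16.7 and 1960 in Cre alfp. It was 1010, 1370, 22.8 and 275 in FoxA3 null and 520, 359, 322 and 126 in the triple null. The 3 libraries with a ratio near or below 1 are lox replicates 1 and 2 and Cre alfp replicate 2. The 6 liver libraries fell in the narrow range of 90.5 to 151, and both genes were lower there than in triple null replicate 4 (126) and Cre alfp replicate 1 (157), the hepatocyte libraries nearest to that range. The part of collection hour in these differences was not tested.

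**Figure D2:**
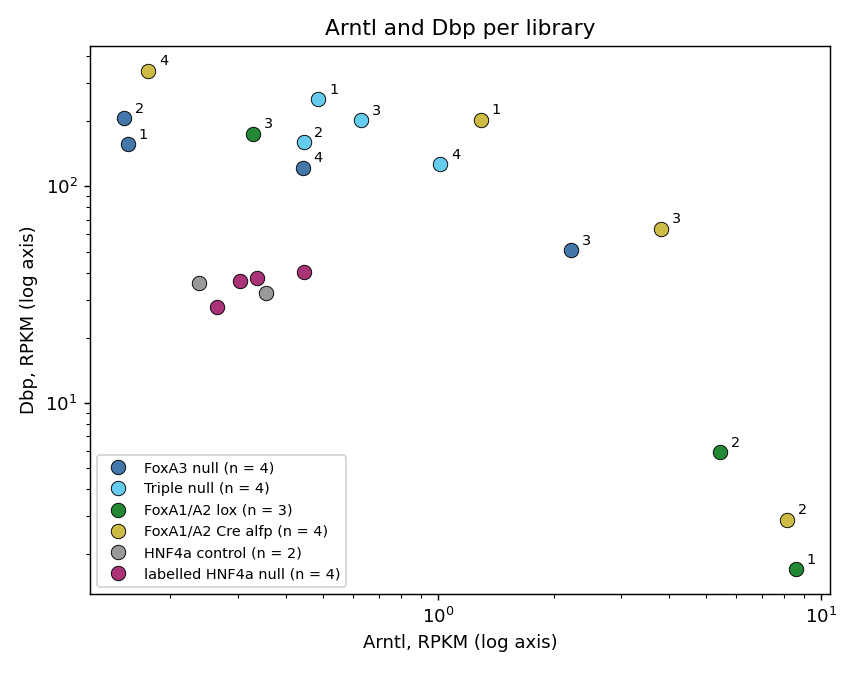
Dbp against Arntl, both in RPKM on log axes, with 1 point per library coloured by group and the replicate number beside hepatocyte points. Lox replicates 1 and 2 and Cre alfp replicate 2 lie at the lower right, with Dbp of 1.7 to 5.91 and Arntl of 5.45 to 8.59 RPKM, and the 6 liver libraries lie together at Dbp of 27.6 to 40.2 RPKM.

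The spread within groups was ranked against that of all 11500 tested genes. The SD of Dbp was 3.16 log2 units within lox, rank 16 of 11500, and 2.89 within Cre alfp, rank 20, where the median gene had 0.176 and 0.174. Per3 had an SD of 1.75 within lox and 1.41 within Cre alfp, and Arntl 1.51 and 1.28. For these 3 genes, at most 1.19% of genes spread more in either group. The same 3 genes had SDs of 0.425, 0.402 and 0.215 in the triple null (Dbp, Per3 and Arntl), against a median gene of 0.216, and 0.869, 0.72 and 0.703 in FoxA3 null, against 0.227. In the libraries labelled HNF4a null, Dbp had 0.233 and Per3 0.228, against a median of 0.162 over 12434 genes. Depth was also more uneven in lox and Cre alfp (2.25 to 3.76 and 2.5 to 4.09 on the relative scale) than in the other hepatocyte groups (2.02 to 2.42), and its part in the spread was not tested.

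**Figure D3:**
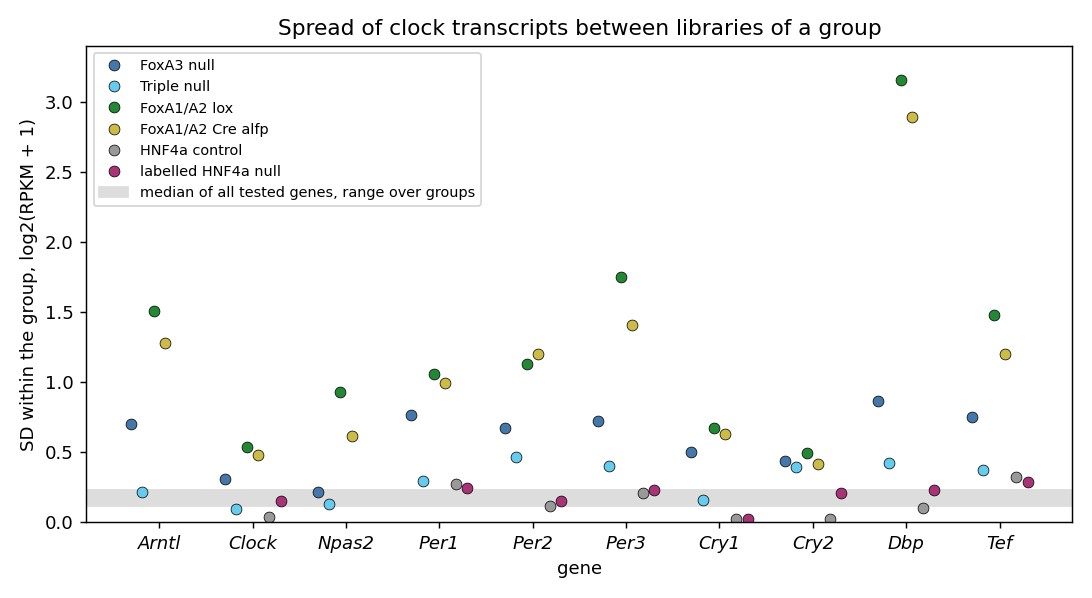
SD of log2(RPKM + 1) between the libraries of a group, for each clock gene, with 1 point per group; Arntl and Npas2 were not tested in liver and have no liver point. Dbp in lox (3.16) and Cre alfp (2.89) stands highest, and the grey band is the range over groups of the median SD of all tested genes, 0.113 to 0.227.

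To see which genes moved together from library to library, group means were subtracted and Pearson's r was taken over the 15 hepatocyte libraries. These values are descriptions, since libraries share depth and handling and the groups' means were removed. Per3, Tef and Dbp had the 3 lowest r with Arntl of all 11499 other genes, at -0.97, -0.97 and -0.95. The highest were B3gat3 (0.97), an enzyme of proteoglycan linker synthesis, Dnmt3b (0.96), a DNA methyltransferase, Pxmp4 (0.96), a peroxisomal membrane protein, Mreg (0.95), melanoregulin, and Lrfn3 (0.95), a synaptic adhesion protein. With Dbp, Tef (0.94) and Per3 (0.92) were the highest of all genes, and Me1 (0.9), malic enzyme, and Epha1 (0.89), an ephrin receptor, were among the 5 highest. Npas2 (-0.96) and Arntl (-0.95) were the lowest. Npas2 had an r of 0.89 with Arntl, Clock 0.81 and Cry1 0.68, while Per1, Per2 and Cry2 had -0.81, -0.84 and -0.77.

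The opposition of Arntl and Dbp was also seen in subsets of the libraries. Without Cre alfp replicate 2 and lox replicate 3, the 2 libraries farthest from the median for Arntl, r was -0.93, and Spearman's rho over all 15 was -0.95. Within lox and Cre alfp together r was -0.97 over 7 libraries, and within FoxA3 null and triple null together it was -0.93 over 8. For Clock and Cry1 the relation with Arntl was weak on the FoxA3-deficient side, at 0.18 and 0.21, against 0.95 and 0.82 in lox and Cre alfp.

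Several other genes of the loop also moved with or against Arntl. With Arntl, the repressors Bhlhe41 (DEC2) and Gm129 (CHRONO, now Ciart) had r of -0.92 and -0.86, and Nr1d2 had -0.83. Nfil3 (E4BP4), which competes with DBP at D-boxes, had 0.66. Bhlhe40 had -0.66 and Hlf, the other PAR bZip factor, -0.54. Rora had -0.03, and Nr1d1 had -0.31 over all 15 libraries, -0.41 in lox and Cre alfp and 0.69 in the FoxA3-deficient groups. Nr1d1 was 1.94, 28.8 and 15.2 RPKM in lox, 24.6 to 83 RPKM in Cre alfp, 43.2 to 72.2 in FoxA3 null, 73.6 to 85.1 in the triple null and only 3.66 to 5.69 RPKM in the 6 liver libraries. Liver thus had low Arntl together with low Nr1d1, whereas hepatocyte libraries with equally low Arntl had Nr1d1 of 15.2 RPKM or more.

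**Figure D4:**
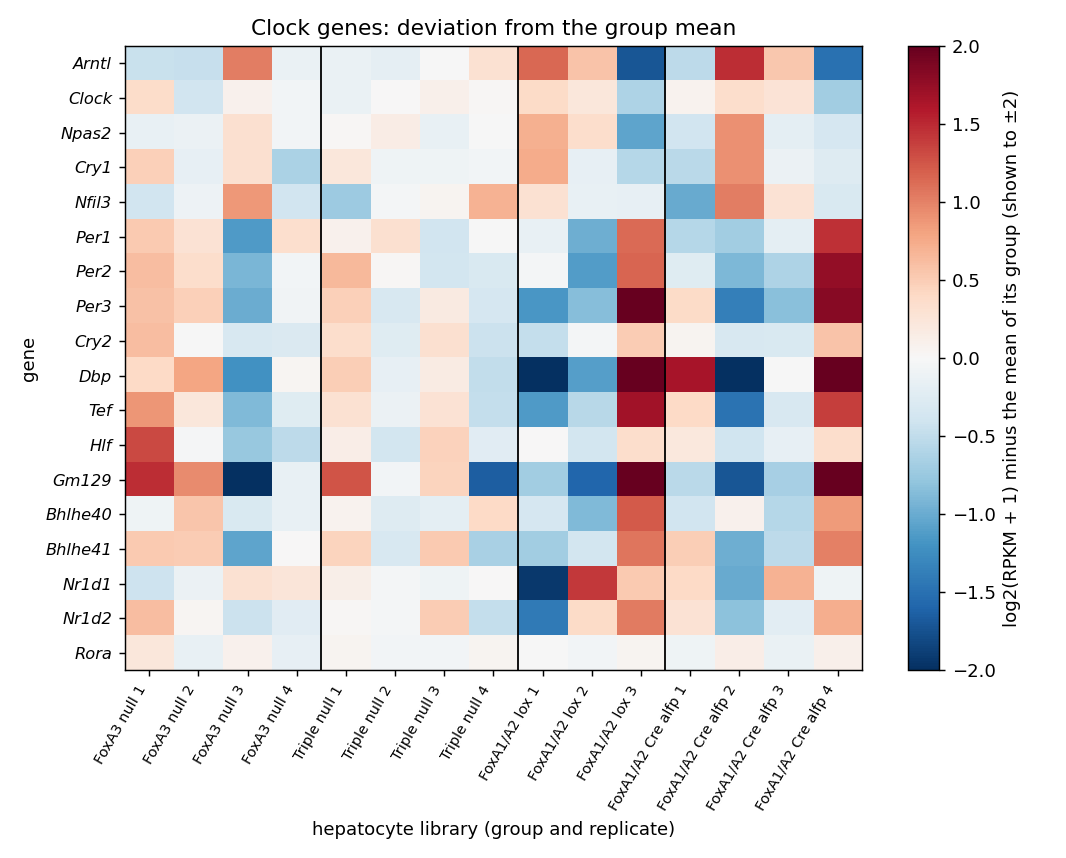
Each cell is the log2(RPKM + 1) of a clock or loop gene (rows) in a hepatocyte library (columns) minus the mean of its group, with red above and blue below, shown to ±2. In FoxA3 null 3, lox 1 and Cre alfp 2 the upper rows (Arntl, Npas2) are red where Dbp, Tef and Per3 are blue, and lox 3 and Cre alfp 4 show the reverse.

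Triple null against FoxA3 null asks what loss of FoxA1 and FoxA2 does when FoxA3 is absent. Cry1 fell, from 2.37 ± 1.1 to 0.699 ± 0.193 RPKM (n = 4 each), by 0.93 on the log2 scale (SE 0.33, limma adjusted p = 0.0467). It was 1 of 10 members called changed and 1 of 10 whose libraries did not overlap, where 29.7% of all genes were called (12.3% as lower) and 27.9% did not overlap. With a minimum log2 difference of 1 as well, 0 members and 8.11% of all genes were called. The median difference of the 10 members was 0.07, against 0.05 over all genes. The Cry1 call is narrow: it was lost in 7 of the 8 fits that left out 1 library of either group, with differences of -0.77 to -1.01 and adjusted p of 0.0587 to 0.127, and held only without FoxA3 null replicate 4. The call was also lost with no minimum on expression (limma adjusted p = 0.116), where the difference was again -0.93 and 24886 genes were tested. All 4 triple null libraries were under the minimum of 1 RPKM for Cry1, which was tested because libraries of the other 3 hepatocyte groups passed it, so the call partly follows from that minimum.

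The activators and outputs showed no called difference in this comparison. Arntl differed by 0.05 (SE 0.63), Clock by 0.01 (SE 0.25) and Npas2 by -0.13 (SE 0.34). Per1, Per2 and Per3 differed by 0.24 (SE 0.51), 0.5 (SE 0.57) and 0.19 (SE 0.71), and Cry2 by -0.5 (SE 0.28, limma adjusted p = 0.191). Dbp differed by 0.59 with an SE of 1.31 and Tef by 0.08 with an SE of 0.62, so that differences of several fold in Dbp could not be detected. The SEs come from a spread shared with lox and Cre alfp.

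Cre alfp against lox asks the same with FoxA3 present. None of the 10 members was called changed by limma, and 1 (Cry1) had an unadjusted p under 0.05; 5.46% of all genes were called. Cry1 was 1.92 ± 1.45 RPKM (n = 4) against 4.7 ± 2.78 (n = 3), a difference of -0.97 (SE 0.36, limma adjusted p = 0.146). Without Cre alfp replicate 2, the library of that group with the highest Cry1, the difference was -1.27 and passed (limma adjusted p = 0.0372). Dbp differed by 2.12 (SE 1.41), Tef by 0.84 (SE 0.67), Per2 by -0.86 (SE 0.61) and Npas2 by -0.46 (SE 0.37), and all 10 members overlapped between the groups, where 19.9% of all genes did not.

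Whether the effect of FoxA1 and FoxA2 loss depended on FoxA3 was tested as the difference of these differences. None of the 10 members passed in limma, with 0 at an unadjusted p under 0.05, where 14.4% of all genes passed. For Cry1 the difference of differences was 0.04 (SE 0.49), for Per2 1.36 (SE 0.83) and for Dbp -1.53 (SE 1.92).

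**Figure D5:**
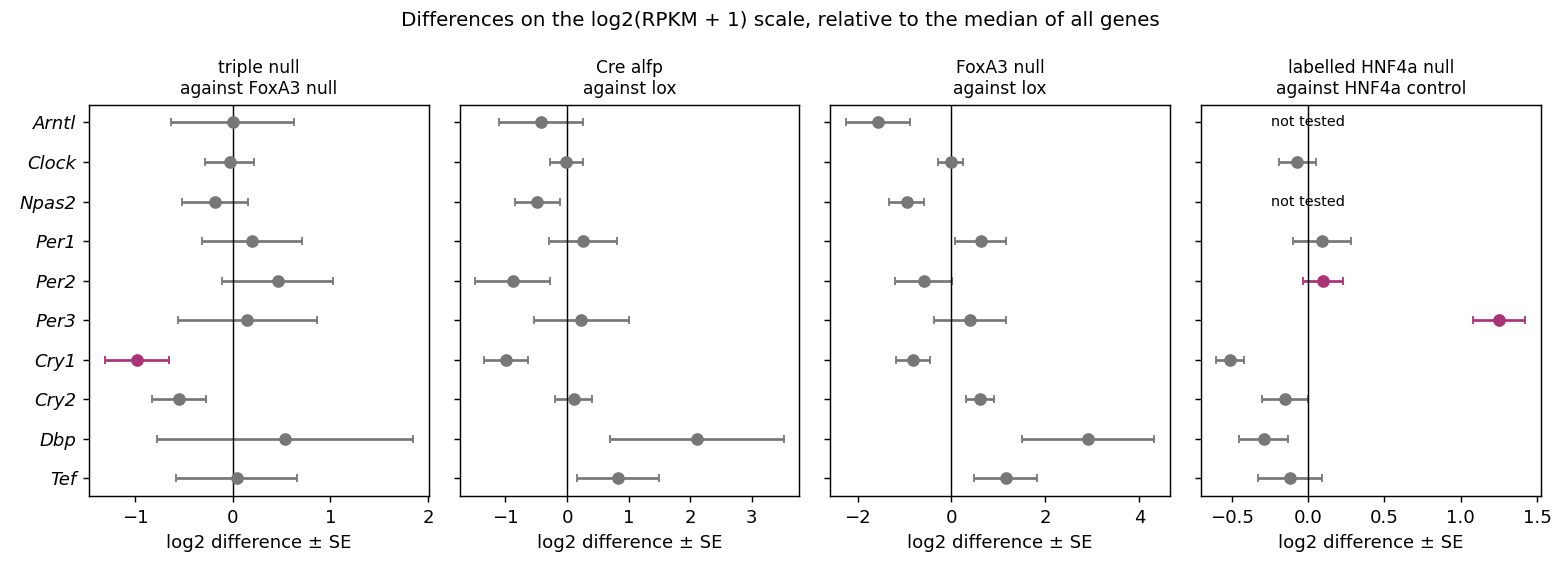
Log2 difference ± SE (horizontal axis) of each clock gene in 4 comparisons, relative to the median difference of all genes, with called genes in purple and others in grey; the axes differ in range between panels. Cry1 lies at -0.98 in triple null against FoxA3 null and at -0.99 in Cre alfp against lox, and Per3 at 1.25 in the labelled HNF4a null livers.

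The calls in comparisons that cross from undeleted lox to the FoxA3-deficient groups depended on which libraries entered the fit. Triple null against lox called 2 of 10 members, both lower, with 42.5% of all genes called, 14.8% as lower, and 46.3% not overlapping. They were Cry1 by -1.65 (SE 0.36, limma adjusted p = 0.00231), with no overlap, and Npas2 by -0.98 (SE 0.37, limma adjusted p = 0.0442), with overlap. All genes shifted by a median of 0.13 here, and relative to that the differences were -1.78 and -1.11. With a minimum log2 difference of 1, 1 member (Cry1) and 13.5% of all genes were called. Npas2 passed the expression minimum only through libraries in which it was high, so its call is no support for a difference. It was lost with no minimum (limma adjusted p = 0.101), without any 1 of the triple null libraries (0.0601 to 0.0917) and with a pseudocount of 0.1 (0.0612). The Npas2 differences in these fits were -0.98, -0.93 to -1.03 and, on the scale of that pseudocount, -2.16, so the losses do not reflect a smaller difference. Npas2 was under the minimum without lox replicate 1 or 2. In a fit of the compared groups alone, Npas2 was under the minimum and Dbp, at 3.6 (limma adjusted p = 0.0529 in the fit of all hepatocyte groups), was called at 0.0414. Without lox replicate 3, the lox library with low Arntl and high Dbp, 6 members were called, and 4501 of 11444 genes: Cry1, Arntl by -2.27, Npas2, Dbp by 5.39, Tef by 2.18 and Per1 by 1.53. FoxA3 null against lox called 0 of 10 in limma, with 2 at an unadjusted p under 0.05 and 34.8% of all genes called. Without lox replicate 3 it called 5, and 3777 of 11444 genes: Arntl by -2.32, Dbp by 4.8, Tef by 2.1, Cry2 by 0.97 and, with the same limit as above, Npas2 by -1.38. Triple null against Cre alfp called 0 of 10 in limma, with 0 at an unadjusted p under 0.05 and 41.2% of all genes called, and without Cre alfp replicate 4 it called Per2, by 1.46 (limma adjusted p = 0.0248). These comparisons share groups with those above, and each is given for its own values.

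Taking both FoxA3-intact groups together against both FoxA3-deficient groups, 0 of the 10 members separated the 7 libraries from the 8, where 11.1% of all genes did so. Lox replicate 3 and Cre alfp replicate 4 lay among or beyond the FoxA3-deficient libraries for Arntl and Dbp.

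Labelled HNF4a null against control liver was tested on 8 of the 10 members, since Arntl and Npas2 were under the minimum of 1 RPKM in 2 libraries. Per3 rose from 4.23 ± 0.746 (n = 2) to 14.8 ± 2.47 RPKM (n = 4), by 1.59 (SE 0.17, limma adjusted p = 0.000513). All genes shifted by a median of 0.34 in this comparison, and relative to that Per3 rose by 1.25. Per2 rose from 4.77 ± 0.452 to 6.8 ± 0.776 RPKM, by 0.43 (SE 0.13, limma adjusted p = 0.0262), which is 0.1 relative to the shift and was lost when libraries were scaled to a common median (0.16, adjusted p = 0.378). The Per2 call was also lost without either control library or without labelled HNF4a null library 1, 2 or 3 (limma adjusted p = 0.0512 to 0.147). These 2 of 8 tested members compare with 52.8% of all genes called, 41.1% as higher, and 1 of them (Per3) with 14.5% at a minimum log2 difference of 1. Further, 4 members (Clock, Per2, Per3 and Cry1) did not overlap, compared with 67% of all genes.

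The other liver members had smaller differences. Dbp differed by 0.05 (SE 0.16), Tef by 0.21 (SE 0.21), Clock by 0.27 (SE 0.12), Per1 by 0.42 (SE 0.19) and Cry2 by 0.18 (SE 0.15), all with limma adjusted p above the threshold. Relative to the shift of all genes Dbp, Tef, Clock and Cry2 turned sign, to -0.29, -0.12, -0.07 and -0.15, and Per1 was at 0.09. Cry1 differed by -0.17 (SE 0.09, limma adjusted p = 0.163). Set against the shift this is -0.51, and Cry1 was called, at -0.44 (adjusted p = 0.0126), when libraries were scaled to a common median. Per1 was called without labelled HNF4a null library 4 (0.55, adjusted p = 0.0218) and Clock without library 1 (0.34, adjusted p = 0.039).

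Counts over further lists of genes are read against all genes tested. In triple null against FoxA3 null 17.4% of all genes were called higher and 12.3% lower, in Cre alfp against lox 2.84% and 2.62%, and in liver 41.1% and 11.7%. Of the 10 other loop genes, 9 were tested in hepatocytes. In triple null against FoxA3 null limma called 0 of 9, with 0 at an unadjusted p under 0.05. In Cre alfp against lox 1 rose: Nr1d1, from a lox mean of 15.3 ± 13.5 RPKM (n = 3) to 55.6 ± 25.2 RPKM (n = 4), by 2.2 (SE 0.58, limma adjusted p = 0.0419), with overlap. Nr1d1 was also higher than in lox in the FoxA3 null group, by 2.4 (SE 0.58, limma adjusted p = 0.00782), and in the triple null, by 2.82 (SE 0.58, limma adjusted p = 0.00163), in comparisons that share the lox libraries. Against lox, 3 of the 9 rose and 1 fell in FoxA3 null, and 2 rose and 1 fell in the triple null, where 34.8% and 42.5% of all genes were called. In liver 3 of 8 rose and 3 fell, where 52.8% of all genes were called. Among those that fell were the nuclear receptor Rora, which fell by 0.72, and Nfil3, which fell by 0.75. Bhlhe40 (DEC1) rose by 1.49. The other 2 that rose, Nr1d1 by 0.45 and Nr1d2 by 0.32, are named after their values were seen, and relative to the shift of all genes they differed by 0.11 and -0.02.

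The kinases and ubiquitin ligases that set the stability of PER and CRY were measured for 8 genes. In triple null against FoxA3 null Fbxl21, which encodes an F-box protein that acts on CRY, rose from 1.87 ± 0.301 to 6.01 ± 0.556 RPKM (n = 4 each, by 1.29, SE 0.16, limma adjusted p = 4.65e-05), and Gsk3b rose by 0.45. Csnk1e, a casein kinase that phosphorylates PER, fell from 4.51 ± 1.41 to 2.09 ± 0.216 RPKM, by 0.8 (SE 0.19, limma adjusted p = 0.00681). In Cre alfp against lox limma called 0 of 8, with 2 at an unadjusted p under 0.05. In liver Csnk1d, Btrc and Csnk2a1 rose, by 0.89, 0.41 and 0.35, which is 0.55, 0.08 and 0.02 relative to the shift.

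Among 12 genes of rhythmic liver output, 2 fell in triple null against FoxA3 null and 0 rose, where 12.3% of all genes fell and 17.4% rose. Elovl3, a fatty acid elongase, fell from 31.4 to 155 RPKM across FoxA3 null libraries to 1.45 to 3.19 RPKM in the triple null, by 4.5 (SE 1.07, limma adjusted p = 0.00598). Upp2, a uridine phosphorylase, fell from 81.8 to 440 RPKM to 10.6 to 36.3 RPKM, by 3.38 (SE 0.73, limma adjusted p = 0.00328). In Cre alfp against lox limma called 0 of 12, with 2 at an unadjusted p under 0.05. Elovl3 differed there by -4.07 (SE 1.16, limma adjusted p = 0.0574), and the difference of differences was -0.43 (SE 1.57, limma adjusted p = 0.881). For Upp2 the difference was 0.51 (SE 0.79), and the difference of differences was -3.88 (SE 1.08, limma adjusted p = 0.028). In liver 4 of 12 rose and 6 fell, where 41.1% of all genes rose and 11.7% fell. Elovl3 fell by 3.82, Upp2 fell by 2.17, Gys2 (liver glycogen synthase) fell by 1.41, and Rgs16, a regulator of G-protein signalling, rose by 2.67.

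Of 5 genes known as targets of DBP and TEF, Cyp2b10, a cytochrome P450 of drug metabolism, rose in all 3 comparisons: by 2.72 in triple null against FoxA3 null (SE 0.45), by 2.93 in Cre alfp against lox (SE 0.49) and by 4.45 in liver (SE 0.28). Nr1i3, the receptor CAR, rose by 1.12 in Cre alfp against lox and fell by 4.8 in liver, and Por, the P450 reductase, rose by 1.61 in liver. Cyp2b10 has close relatives in its family, so its reads are not certain to be its own. In liver it met the expression minimum only with the labelled HNF4a null libraries, as 1 control library was at 0.435 RPKM. Dbp and Tef themselves were not called in any of these comparisons.

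Genes whose rhythm follows body temperature, feeding or hormones were read as a further list of 8. In triple null against FoxA3 null limma called 0 of 8, with 1 at an unadjusted p under 0.05. In Cre alfp against lox 3 fell: Hspa8, a heat shock protein, from 484 ± 243 to 64.5 ± 52.9 RPKM (by 3.04, SE 0.58, limma adjusted p = 0.00698), Hsp90aa1 by 1.34 and Tfrc, the transferrin receptor, by 1.08, where 2.62% of all genes fell. The difference of differences was 3.1 (SE 0.79, limma adjusted p = 0.0182) for Hspa8 and 2.24 (SE 0.47, limma adjusted p = 0.00685) for Hsp90aa1. In liver 4 of 7 rose and 2 fell, where 41.1% of all genes rose and 11.7% fell, with Tfrc, Rbm3 and Cirbp up by 1.34, 1.12 and 1.11 and Hspa1b down by 1.18. Of 9 glucocorticoid response genes, the metallothioneins Mt2 and Mt1 rose in the triple null against FoxA3 null, by 2.81 and 2.04, and Sgk1 fell by 1.63. None of the 9 was called by limma in Cre alfp against lox, with 2 at an unadjusted p under 0.05. In liver 4 rose and 2 fell, among them Mt1 up by 3.61, Mt2 by 3.15 and Sgk1 by 3.14, with Tat down by 1.01. Of 12 immediate early genes, Ier3 rose in the triple null by 1.38, limma called 0 in Cre alfp against lox with 5 at an unadjusted p under 0.05, and in liver 4 of 10 rose (Egr1 by 1.57, Btg2 by 1.28, Ier3 by 1.13 and Atf3 by 1.02) and 1 fell, against 41.1% and 11.7% of all genes. In liver Egr1, Atf3 and Elovl3 passed the expression minimum only through the group in which they were high. Their calls thus partly follow from that minimum. The liver calls of Ier3 and Cyp2b10 share that limit, since only 1 control library of each reached the minimum, at 1.06 and 1.48 RPKM.

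Markers of other cell types moved with some of these groups. The counts called compare with 17.4% of all genes higher and 12.3% lower in triple null against FoxA3 null. In Cre alfp against lox these shares were 2.84% and 2.62%, and in liver 41.1% and 11.7%. Of 4 neutrophil markers, the summed level was 9.04 to 110 RPKM in the triple null and 0.702 to 1.65 RPKM in FoxA3 null, and Ly6g was under 1 RPKM in every library of both. The 6 sinusoidal endothelial markers summed to 4.73 to 9.5 RPKM in the triple null and 17 to 28.8 RPKM in FoxA3 null, and the 8 hepatocyte markers to 19700 to 24700 and 29400 to 40200 RPKM, with 4 of the 8 called lower and 2 higher. The 6 stellate and fibroblast markers summed to 5.48 to 20 RPKM in the triple null and 19.3 to 26.6 RPKM in FoxA3 null, and 1 of the 2 tested was called lower. The 4 erythroid markers summed to 5.94 to 21.7 RPKM in the triple null and 33 to 47.3 RPKM in FoxA3 null, and to 14.9 to 29.2 RPKM in Cre alfp and 81.3 to 90.8 RPKM in lox. Those sums hide opposite moves, since of the 3 erythroid markers tested 2 were called higher and 1 lower in the triple null, and 1 higher and 1 lower in Cre alfp. Cre alfp and lox overlapped for the endothelial markers, at 11.9 to 45.5 and 27.3 to 40.5 RPKM, and the hepatocyte markers were 25800 to 30100 and 30100 to 34400 RPKM. Cholangiocyte markers summed to 2.53 to 7.14 RPKM in Cre alfp and 4.31 to 14 RPKM in lox, with 1 of 2 tested called lower. In liver the 6 cholangiocyte markers summed to 107 to 205 RPKM under the HNF4a null label and to 14.5 RPKM in each control, with Cftr under 1 RPKM in all. The hepatocyte markers summed to 10400 to 11600 RPKM against 21600 to 22100 RPKM in control, with 4 of 8 called lower and 2 higher. The neutrophil markers summed to 2.94 to 14.1 RPKM against 0.619 to 1.75 RPKM, and both that were tested were called higher. S100a8, among these, was under 1 RPKM in both control livers and passed the expression minimum only through the labelled HNF4a null libraries. Its call thus partly follows from that minimum. Of 6 markers tested for each type, 1 Kupffer, 1 endothelial and 2 stellate markers were called higher, where 41.1% of all genes were. Relative to the shift of all genes, the median differences of these 3 lists were -0.12, -0.14 and -0.02. Their sums were 108 to 135, 127 to 136 and 97.1 to 112 RPKM against 93.9 to 103, 102 to 111 and 80.9 to 90.6 RPKM in control. The part of these cells in the differences of Cry1, Per3 or any list above was not tested.

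The authors' deposited tables list the members under their own test. For triple null against FoxA3 null the authors' deposited table gives Cry1 a log2 fold change of -1.78 with an adjusted p of 4.4e-06, and no other listed member under 0.05; Cry2 is at -0.59 with an adjusted p of 0.0676. For the HNF4a comparison the authors' deposited table gives Per3 1.42 (adjusted p 1.15e-26), Cry1 -0.63 (adjusted p 0.000636) and Cry2 -0.35 (adjusted p 0.0242), and Per2 0.1 (adjusted p 0.54). The signs for Cry2, Clock (-0.08), Tef (-0.19) and Dbp (-0.12) in that table are opposite to the fit of RPKM values. Relative to the shift of all genes the fit has the same signs as that table for them, at -0.15, -0.07, -0.12 and -0.29. For triple null against controls without deletion, with the sign turned to match, the authors' deposited table gives Cry1 -2.92, Npas2 -4.37 and Arntl -3.17 with adjusted p of 7e-14, 0.00582 and 0.00243. For triple null against Cre alfp the authors' deposited table gives Arntl -2.6 and Cry1 -1.6, at 0.0157 and 0.000781 after Benjamini-Hochberg adjustment over the table. Hepatoblasts, the fetal precursors of hepatocytes, were set against an adult reference whose libraries are not stated: in that authors' deposited table Arntl is at -2.98, Tef at -2.57 and Clock at -1.12, with adjusted p of 0.0362, 0.0185 and 0.0122. In the authors' deposited table of newborn against adult hepatocytes, Arntl is at 0.43, Tef at -0.23 and Clock at 0.04, none with an adjusted p under 0.05, and Cry2 is at 1.39 with an adjusted p of 2.88e-05.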

How the data were processed

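RNA was measured by sequencing in 15 mouse hepatocyte and 6 mouse liver libraries. Expression comes from the authors' RPKM matrix, deposited with 33773 gene symbols, in which 21 columns matched a sample or group by name, and 9 others were not used. The submitters' processing notes name Cufflinks 2.2.1, SAMtools, DESeq2 and build mm9, with no role given; the aligner and annotation are not given in the sources used here. Among non-zero entries 2.9% lay below 1e-06, which plain read counts over length would not give, and absolute depth is unknown. In the authors' deposited tables of comparisons, each gene has a log2 fold change and a p-value, per the file headers. In 3 of them (triple null against Cre alfp, hepatoblast and newborn) the header has no name for the gene column, so columns were read 1 place to the right of their names; in that reading fold change over error gave the deposited statistic within 1% for 100% of genes. Their p-values were adjusted here by Benjamini-Hochberg, which gave the unnamed last column of the hepatoblast and newborn tables within 1%. HNF4a columns carry no replicate number and are numbered as names only. HNF4a peaks and the other chromatin files were not used here.

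Limma 3.58.1 in R 4.3.3 (lmFit, eBayes with a trend) was run on log2(RPKM + 1), with 1 fit over the 15 hepatocyte libraries (genes of at least 1 RPKM in at least 3) and 1 over the 6 liver libraries (at least 2), and tested on simulated data. P-values were adjusted by Benjamini-Hochberg over all tested genes. The interaction is triple null minus FoxA3 null, less Cre alfp minus lox. All 10 members were described throughout; of each further list up to 4 called genes with the largest difference were named, and for Arntl and Dbp the 5 highest and 3 lowest correlated genes, except for a few that are not reported here. The members and lists were chosen with earlier results of these data known, so their counts are not independent support. Some symbols were matched through older names (Ciart as Gm129, Noct as Ccrn4l, Adgre1 as Emr1). Same-numbered libraries of different groups had correlations of deviations of -0.36 to 0.17, so the numbers were not treated as pairs. Alternatives were another pseudocount (0.1), no expression minimum, median scaling, a minimum log2 difference of 1, the compared groups alone, a block and leaving out each library.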

Additional observations from a re-analysis of the deposited data

Results flagged for a closer look

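In groups of 4 libraries, 40 combinations of clock gene and group were checked, and 7 had a library apart from the other 3. Dixon's criterion was applied to RPKM, not to log2 values. Its nominal rate of 1 in 20 assumes independent, normally distributed values. Clock genes moved together between libraries and their RPKM differed many-fold, so 7 of 40 cannot be read against that rate. FoxA3 null replicate 3 lay apart for Arntl, at 2.22 RPKM, and for Npas2, at 0.552 RPKM, both above the rest of the group. Cre alfp replicate 2 lay apart for Npas2, at 2.07 RPKM. Cre alfp replicate 4 lay apart for Per1, at 20.2 RPKM, and for Per2, at 12.3 RPKM. Triple null replicate 1 was the highest of its group for Cry1, at 0.988 RPKM, and lay apart. Labelled HNF4a null library 4 was the lowest for Per1, at 8.43 RPKM, and lay apart. The 3 lox libraries and the 2 control liver libraries were too few for this check.

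The effect of FoxA1 and FoxA2 deletion differed with and without FoxA3, by the limma test of the difference of differences, for 4 of the 63 genes of the functional lists tested. The difference of differences was -3.88 for Upp2, -0.79 for Nr1i3 (adjusted p = 0.0193), 2.24 for Hsp90aa1 and 3.10 for Hspa8 on the log2 scale, where 14.4% of all genes passed this test. Cell type markers were called as well, with 2 of 8 hepatocyte markers higher and 3 lower. Both tested neutrophil markers were higher, and 1 marker each of endothelium, stellate cells and erythroid cells was lower. All 4 neutrophil markers were under 1 RPKM in every lox library, and S100a9, Retnlg and Ly6g in every FoxA3 null library. The neutrophil calls may thus partly follow from the expression minimum.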

How the results depend on the processing

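Of 866 differences of single members recomputed under the alternatives, 828 stayed on the same side of the threshold, 23 lost their call and 15 gained one, and 0 called differences changed sign; 91 uncalled ones did. The members called in triple null against FoxA3 null were 0 with a minimum log2 difference of 1, with no expression minimum and with a replicate block (Cry1 adjusted p = 0.0594), and 0 to 1 when a library was left out. In triple null against lox they were 1 under the minimum difference, no expression minimum, a pseudocount of 0.1 and the replicate block, and 1 to 6 when a library was left out (6 without lox replicate 3); with the compared groups alone they were again 2, but Cry1 and Dbp in place of Cry1 and Npas2. In liver they were 1 under the minimum difference and with no expression minimum, and 1 to 3 when a library was left out. Leaving out a library gave 0 to 1 members in Cre alfp against lox (1 without Cre alfp replicate 2), 0 to 5 in FoxA3 null against lox (5 without lox replicate 3) and 0 to 1 in triple null against Cre alfp (1 without Cre alfp replicate 4). The numbers are shared labels without evidence of pairing, and the replicate block changed no other count of members.

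Over all genes, a minimum log2 difference of 1 left 933 of 3413 calls in triple null against FoxA3 null, 274 of 628 in Cre alfp against lox, 1556 of 4891 in triple null against lox, 1184 of 4743 in triple null against Cre alfp, 827 of 4001 in FoxA3 null against lox, 784 of 1658 for the interaction and 1807 of 6569 in liver. A fit of the compared groups alone called 380 genes in Cre alfp against lox. With a library left out, calls ranged from 278 to 595 in Cre alfp against lox, 2368 to 4540 in FoxA3 null against lox, 1043 to 1853 for the interaction and 4030 to 6119 in liver. The lowest counts came without lox replicate 1 (278 and 1043), lox replicate 2 (2368) and control library 2 (4030). Fewer libraries and fewer genes tested are part of these alternatives by construction. Liver libraries are the shallowest, Arntl and Npas2 were too low to be tested there, and absolute depth is unknown.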
